A study of Rattus norvegicus and Mus musculus with 18 samples.

Results

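Transcripts of nuclear receptors were followed across the tissues of the embryonic kidney with 200 array probe sets, taken from the 71239 probe sets of 4 tables that are not controls. A list of 46 receptors was matched to the platform annotation, and a probe set was used when it was annotated to exactly 1 of the listed symbols. Of the 46 receptors, 45 had at least 1 such probe set, and Nr2e3 had none. The mouse table held 115 probe sets of 44 receptors, with Nr1h2 the other symbol without one, and the 3 rat designs together held 85 probe sets of 36 receptors (63 on the first design, 15 on design B and 7 on design C).

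Nuclear receptors are transcription factors that bind DNA through a zinc finger domain, and many are switched by a small lipophilic ligand such as retinoic acid, a steroid, thyroid hormone, vitamin D or a fatty acid. Others are called orphans because no physiological ligand is established for them. In the developing kidney, retinoic acid received by Rara and Rarb in the stroma is known to be needed for Ret expression and branching of the ureteric bud.

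Mouse kidneys at stage E12.5 were divided into ureteric bud tips (a pool of about 1000), bud stalks (about 350) and metanephric mesenchyme (about 300). Rat kidneys at stage E13.5, when the bud is a T-shaped tubule, were divided into whole buds (about 1200) and mesenchyme (about 240). All tissues had been through 10 min in DNase and trypsin, and the labels name neither a strain nor a treatment. Every tissue has 2 arrays per design, 18 arrays in all, and both are labelings of 1 pooled RNA, so each n of 2 below counts labelings and the p-values measure labelling and hybridisation spread only. In such bulk tissue, fewer cells of a type and less RNA per cell cannot be told apart.

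Intensities are on the linear scale of the deposited tables after quantile normalisation within each table, and differences are on the log2(intensity + 16) scale, the tested tissue minus its comparator. Testing was limited to probe sets with a tissue mean at or above the median of their table, an intensity of 49.5 in mouse, and of 111, 118 and 115 for the first rat design and designs B and C. It was called when the adjusted p was under 0.05 and the difference at least 2-fold. Intensities of different probe sets have no common scale and are not ranked against each other.

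The tissues carried their own markers. The summed intensity of 10 ureteric epithelial genes was 21960 to 22160 in tip, 12310 to 12550 in stalk and 707 to 736 in mesenchyme, and in mesenchyme Cdh1, Cldn8, Gata3 and Ret were below the median. The sum of 8 stromal genes was 974 to 1198 in tip, 10770 to 10920 in stalk and 10220 to 10360 in mesenchyme, so the stromal marker signal of the stalk pool was as high as that of the mesenchyme pool. On all 3 rat designs the second bud labelling stood apart: the Gapdh control gave a 3′ signal 4.43, 5.28 and 4.26 times its 5′ signal there, against 1.25 to 1.47 on the other rat arrays.

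Of the 115 mouse probe sets, 39 were above the table median on both arrays in tip, 40 in stalk and 40 in mesenchyme. These shares of 33.9%, 34.8% and 34.8% lay below those of all probe sets, which were 47.5%, 48.8% and 48.2% in the same tissues. At least 1 probe set of 21 receptors was above the median in all 3 mouse tissues. They were the orphan receptors Nr2c1, Nr2c2, Nr2f1, Nr2f2 and Nr2f6, the immediate-early Nr4a1, Nr4a2 and Nr4a3, the retinoic acid receptors Rara, Rarb and Rarg with their partners Rxra and Rxrb, the thyroid hormone receptor Thra, the glucocorticoid receptor Nr3c1, the fatty acid sensor Ppard, the clock-associated Nr1d2 and Rora, the estrogen-related Esrra and Esrrb, and Hnf4a.

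A further 6 receptors were above the mouse median in some tissues only. Pgr, the progesterone receptor, was above it in tip and stalk, Pparg and Esrrg were above it in stalk, Nr6a1 in tip, Rxrg in mesenchyme, and Nr0b2 in tip and mesenchyme. Most of these lie close to the median. Rxrg, for instance, measured 43.2 and 46.7 in tip, 53.4 and 47.9 in stalk and 50.6 and 51.5 in mesenchyme, which does not separate the tissues. Nr1d1 and Rorb passed the median on single arrays. No array was above it for Nr0b1, Nr1h3, Nr1h4, Nr1i2, Nr1i3, Nr2e1, Nr3c2, Nr5a1, Nr5a2, Thrb, Vdr, Ppara, Esr1, Esr2 and Hnf4g, 15 receptors that include the mineralocorticoid, vitamin D and estrogen receptors. A level below the median does not show that the transcript is missing.

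**Figure D1:**
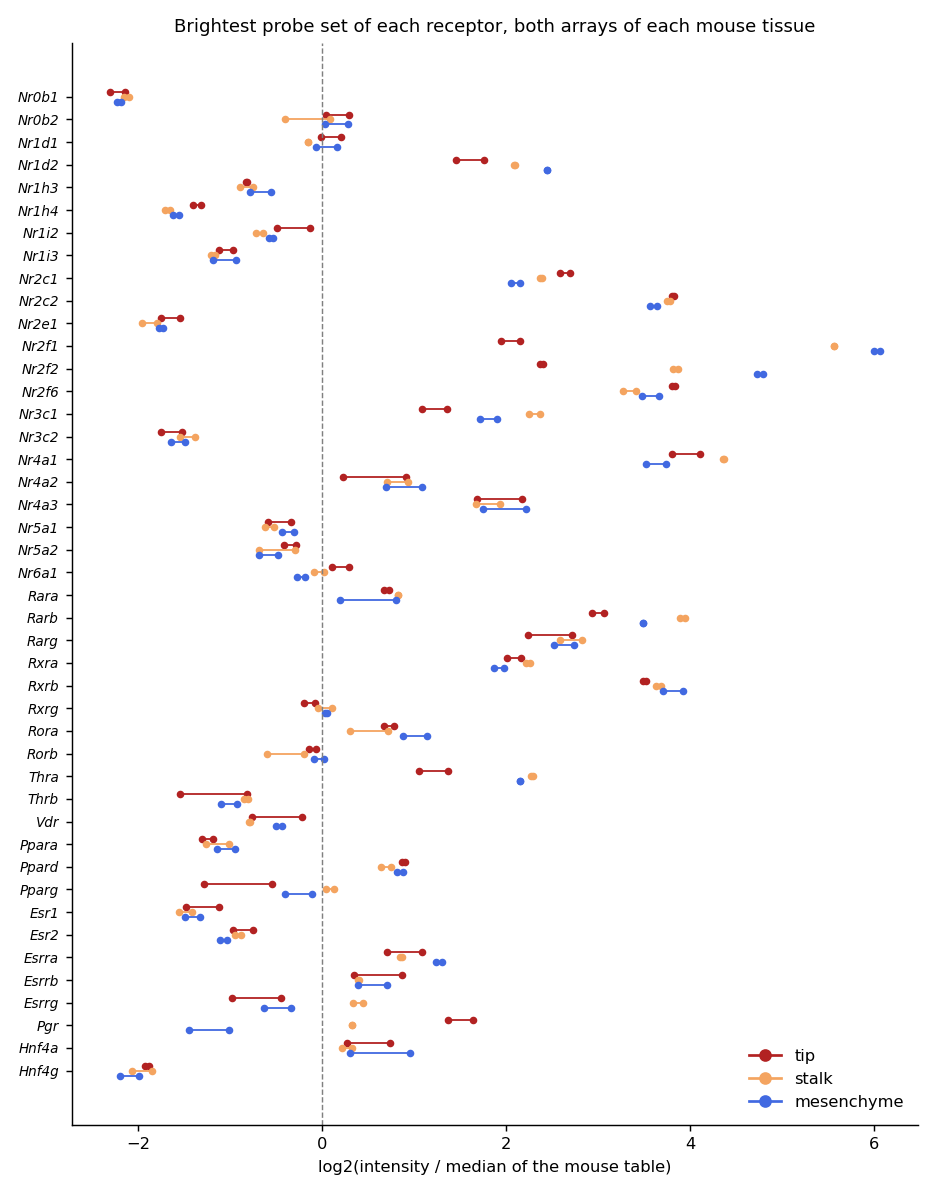
Brightest mouse probe set of each receptor as log2 of its intensity over the median of the mouse table (x axis), with 1 row per receptor and 1 point per array. Red is tip, orange stalk and blue mesenchyme, the line joins both arrays of a tissue, and the dashed line is the median. Nr2f1, Nr2f2, Nr3c1 and Pgr show the tissues apart, while for most receptors the 3 tissues lie close together.

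In the rat, 22 of 36 receptors were above the median of their table in bud or mesenchyme, and 17 receptors were above it in at least 1 tissue of both species. On the first design 27 of 63 probe sets were above the median in bud and 29 in mesenchyme, shares of 42.9% and 46% against 47.2% and 48.5% of all probe sets. Design B had 2 of 15 in bud and 4 in mesenchyme (13.3% and 26.7%, against 47.5% and 48.1% of all), and design C had 3 of 7 in both tissues (42.9%, against 47.6% of all in bud and 48.3% in mesenchyme). The arrays of the species differ in probes, so a receptor above the median in 1 species only is not shown to differ between them. Vdr is such a case, with 174 and 214 in rat bud and 198 and 197 in rat mesenchyme, and no more than 42.6 on any mouse array. Nr3c1 is the reverse, since none of its 5 rat probe sets passed the median on any array.

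Some receptors rest on probe sets that disagree. Rat Esr2 was above the median by U57439_g_at, with 411 and 441 in bud and 428 and 432 in mesenchyme, but U57439_at for the same gene measured 39.2 to 45.5. Rat Nr5a1, known for its role in adrenal and gonad, was above it on design B, with 425 and 446 in bud and 536 and 531 in mesenchyme, and below it on the first design, at 88.2 to 106. Of 5 adrenal and gonad markers on the first design, Cyp11a1, Cyp17a1 and Star were below the median in both tissues and 2 were above it, and their sum was 944 to 1007 in bud and 946 to 1007 in mesenchyme. Mouse Hnf4a was above the median by 1427001_s_at, at 57.5 to 96.0 over all arrays, and below it by its other 3 probe sets, and mouse Esrrb was above it by 1441921_x_at but not by its other 2 probe sets. Probe sets of the _s_at and _x_at kinds can also take up related transcripts.

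Between tip and stalk, 9 of 50 tested receptor probe sets were called, which is 18% of them beside 4.59% of all 23937 tested probe sets. Of these, 1 was higher in tip (0.953% of all probe sets were) and 8 lower (3.63% of all). The 8 lower ones belong to Nr2f1, Nr2f2 and Nr3c1 and the higher one to Pgr, so the 9 come from 4 receptors. By the brightest probe set of each receptor, 1 of 28 tested receptors was called higher in tip than stalk and 2 lower. Over all genes, 1.16% were called higher and 4.18% lower. Between tip and mesenchyme 6 were called, or 12% beside 8.16% of all, 1 of them higher in tip (3.9% of all) and 5 lower (4.27% of all). By the brightest probe set, 1 of 28 receptors was higher there and 2 lower, beside 4.65% and 5.06% of all genes. Between stalk and mesenchyme only Pgr was called, 2% of the receptor probe sets beside 2.77% of all. At any fold, 20 of the 50 had an adjusted p under 0.05 for tip and stalk (40%, beside 28.6% of all), 24 for tip and mesenchyme (48%, beside 33.7%) and 11 for stalk and mesenchyme (22%, beside 13.1%). These comparisons share arrays. Over all 50 the median difference was -0.14 for tip minus stalk, -0.12 for tip minus mesenchyme and -0.01 for stalk minus mesenchyme, while all tested probe sets had medians of 0.06, 0.01 and -0.05.

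**Figure D2:**
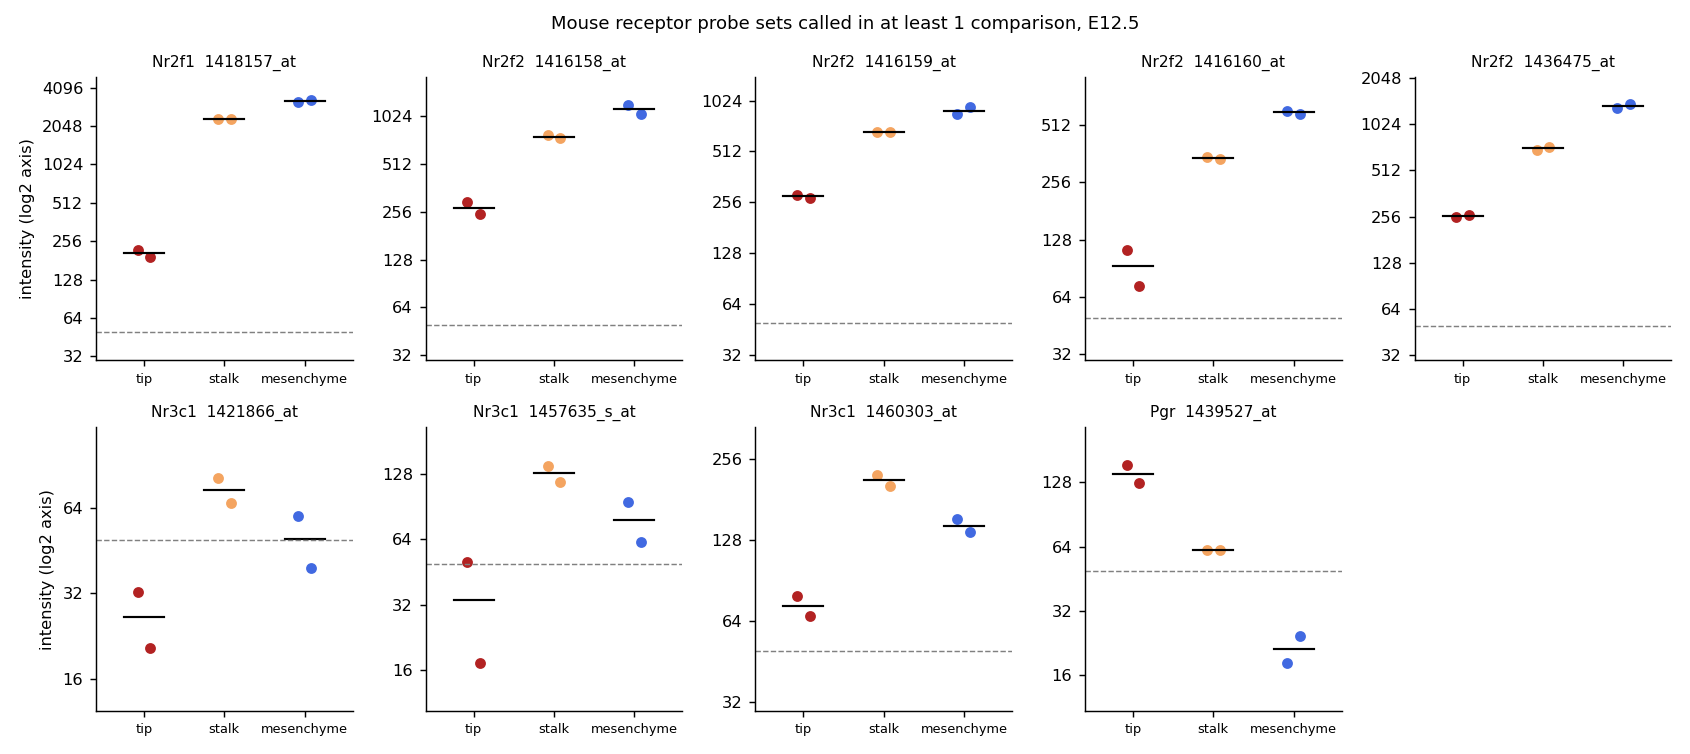
Intensity (log2 axis) of the 9 mouse receptor probe sets called in at least 1 comparison, in tip, stalk and mesenchyme. Points are the 2 arrays of each tissue, bars their mean, and the dashed line the table median of 49.5. Nr2f1 and Nr2f2 are lowest in tip and highest in mesenchyme, Nr3c1 is lowest in tip and highest in stalk, and Pgr is highest in tip.

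Nr2f1 and Nr2f2 encode the orphan receptors COUP-TFI and COUP-TFII, of which COUP-TFII is known from mesenchyme of many organs. Nr2f1 had intensities of 219 and 191 in tip, 2336 and 2337 in stalk, and 3151 and 3307 in mesenchyme. The tissues did not overlap, and tip stood far below both others. Nr2f1 averaged 205 ± 20.1 in tip, against 2337 ± 1.13 in stalk and 3229 ± 110 in mesenchyme (SD, n = 2 each). The difference was -3.41 ± 0.06 (SE) for tip minus stalk (adjusted p = 7.665e-09) and -3.88 for tip minus mesenchyme (adjusted p = 1.293e-09). The smaller step of -0.46 for stalk minus mesenchyme passed the p threshold (adjusted p = 0.001304) but not the 2-fold limit.

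Nr2f2 has 6 mouse probe sets, and 4 of them were called lower in tip than in both other tissues. By 1436475_at it measured 256 and 262 in tip, 695 and 724 in stalk, and 1306 and 1375 in mesenchyme. By 1416158_at it had 293 and 247 in tip, 779 and 740 in stalk, and 1198 and 1057 in mesenchyme. The order of the tissues was the same with 1416159_at, at 281 and 273 in tip, 671 and 665 in stalk, and 848 and 939 in mesenchyme. It was also the same with 1416160_at, at 113 and 72.9 in tip, 348 and 339 in stalk, and 608 and 586 in mesenchyme. The 4 probe sets gave -1.22 to -1.75 for tip minus stalk (adjusted p from 4.691e-07 to 4.764e-05) and -1.63 to -2.52 for tip minus mesenchyme (adjusted p from 9.295e-09 to 2.381e-06). For stalk minus mesenchyme they gave -0.41 to -0.90, all with an adjusted p under 0.05 and none 2-fold. Of the remaining probe sets, 1444229_at followed the same order at 17.2 to 66.1 without reaching 2-fold, and 1431237_at was too low to be tested. In tip all 4 called probe sets and Nr2f1 remained above the table median.

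The rat arrays gave the same direction for this pair. Rat Nr2f1 measured 86.3 and 104 in bud, against 1045 and 944 in mesenchyme, a difference of -3.18 ± 0.14 (SE). The companion probe set U10995_at stayed at 17.8 to 23.0 and was not tested. Rat Nr2f2 measured 90.2 and 75.7 in bud on design B, against 1835 and 1822 in mesenchyme, which was -4.22 ± 0.12 (SE). A second Nr2f2 probe set on the first design had 61.2 and 46.2 in bud, against 342 and 372 in mesenchyme (-2.43). Both genes passed the filter on low values through mesenchyme alone, so their adjusted p-values are not given, though their calls are counted below. Bud lay below the table median for both genes, and mesenchyme above it.

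Stromal marker genes were low in tip like Nr2f1 and Nr2f2. Between stalk and mesenchyme the 8 stromal genes were mixed, with a median of 0.15. There 2 were called higher in stalk and 1 lower (2.94% and 0.558% of all genes). All 8 of them were called lower in tip than in stalk and lower in tip than in mesenchyme, with medians of -3.21 and -3.01. In the rat their sum over 7 genes was 912 to 972 in bud and 3571 to 4072 in mesenchyme. Endothelial markers, 7 genes, summed to 615 to 623 in tip, 1409 to 1454 in stalk and 2182 to 2190 in mesenchyme, the order of Nr2f2 itself. Nephron progenitor markers, 8 genes, had that order too, at 765 to 869 in tip, 2436 to 2437 in stalk and 6632 to 6657 in mesenchyme. So did the sums of erythroid, macrophage and neuronal markers, so the order does not single out a cell type. The part of these cell types in the result was not tested.

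The third member of the subfamily, Nr2f6 (EAR2), did not follow that order. Nr2f6 measured 685 and 730 in tip, 474 and 472 in stalk and 551 and 540 in mesenchyme by 1460648_at. It was 0.565 higher in tip than stalk (adjusted p = 1.289e-04), and 0.37 higher in tip than mesenchyme (adjusted p = 0.001092), short of 2-fold in both. The second probe set gave 0.46 and 0.24, both with an adjusted p under 0.05. In rat, AF003926_at had 1091 and 1479 in bud, against 835 and 788 in mesenchyme, but the difference of 0.64 did not pass (adjusted p = 0.06304), and rc_AA801029_s_at overlapped between tissues.

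Nr3c1 encodes the glucocorticoid receptor, through which cortisol and corticosterone act. By 1460303_at it measured 79.2 and 66.8 in tip, 223 and 203 in stalk, and 153 and 137 in mesenchyme. Tip was lowest and stalk highest, with no overlap. With 1421866_at the values were 32.4 and 20.6 in tip, 81.6 and 66.3 in stalk, and 59.8 and 39.4 in mesenchyme. With 1457635_s_at they were 50.02 and 17.2 in tip, 140.1 and 118 in stalk, and 95.2 and 62.3 in mesenchyme. The tip arrays of 1457635_s_at were thus far apart. The tip means of 1421866_at and 1457635_s_at, 26.5 and 33.6, lay below the table median. Both passed the filter on low values through the higher tissues only, which limits their tests below. For 1421866_at the mesenchyme mean of 49.6 barely reached the median of 49.5. Tip minus stalk for Nr3c1 was -1.37 ± 0.13 (SE) with 1460303_at (adjusted p = 7.766e-05), -1.63 ± 0.30 with 1457635_s_at (adjusted p = 0.003865) and -1.09 ± 0.20 with 1421866_at (adjusted p = 0.003853). The fourth tested probe set, 1421867_at, had 127 and 105 in tip, against 256 and 235 in stalk, which at -0.99 fell just under the 2-fold limit (adjusted p = 4.31e-04). It was called on the deposited values (-1.07), with trimmed-mean scaling (-1.04), with a pseudocount of 1 (-1.08), and without the first tip array (-1.09) or the second stalk array (-1.05). In turn, 1421866_at lost its call without the second tip array (-0.91) or the first stalk array (-0.96), and with a pseudocount of 64 (-0.61). In the limma test against 1.5-fold, 1421866_at (adjusted p = 0.306) and 1457635_s_at (adjusted p = 0.0844) both lost their calls.

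Between tip and mesenchyme the 4 Nr3c1 probe sets gave -0.52 to -0.99, all with an adjusted p under 0.05 and none 2-fold. Stalk was above mesenchyme by 0.47 with 1421867_at (adjusted p = 0.03866) and by 0.51 with 1460303_at (adjusted p = 0.03041). With 1457635_s_at that step was 0.63 and did not pass (adjusted p = 0.2374). By their means, the 4 probe sets ordered tip, mesenchyme, stalk from low to high. The sum of 7 markers of ureteric mesenchyme and smooth muscle had the same order. It was 1313 to 1314 in tip, 6922 to 6933 in stalk and 3540 to 3551 in mesenchyme. Gene by gene these markers were mixed, with 3 called higher in stalk than mesenchyme and 1 lower (2.94% and 0.558% of all genes). Their part in the result was not tested. The mineralocorticoid receptor Nr3c2 stayed at 14.8 to 19.1 on all mouse arrays. Hsd11b2, the enzyme that inactivates cortisol and corticosterone, averaged 342 in tip and 855 in stalk, a difference of -1.28 (adjusted p = 1.917e-06). It was the 1 called of 5 tested genes of hormone handling, where 4.18% of all genes were called lower.

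Pgr, the progesterone receptor, ran the other way. By 1439527_at Pgr measured 154 and 127 in tip, 61.9 and 62.0 in stalk, and 18.2 and 24.5 in mesenchyme. It averaged 141 ± 19.0 in tip, against 62.0 ± 0.106 in stalk and 21.4 ± 4.46 in mesenchyme (SD, n = 2 each). Pgr was 2.07 ± 0.15 (SE) higher in tip than mesenchyme (adjusted p = 9.031e-06). For tip over stalk it stood at the 2-fold limit, with 1.00 ± 0.15 (SE, adjusted p = 0.001284), and it lost the call on the deposited values (0.97), with trimmed-mean scaling (0.99), with a pseudocount of 64 (0.70), in a test against 1.5-fold (adjusted p = 0.2144), and without the first tip array (0.87), either stalk array (0.98 and just under 1.00) or the first mesenchyme array (0.99). For stalk over mesenchyme it was 1.07 (adjusted p = 0.001598), and 0.94 without the first mesenchyme array.

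Pgr shares this order with the sums of the ureteric epithelial and the early nephron markers. The 6 early nephron genes summed to 3655 to 3755 in tip, 2218 to 2226 in stalk and 967 to 990 in mesenchyme. The order thus does not single out a cell type, and the part of these markers was not tested. The other 2 mouse Pgr probe sets measured 11.8 to 29.0 in all tissues and were not tested, so the pattern rests on 1 of 3. In rat, the design B probe set for Pgr had 80.9 and 64.9 in bud, against 49.3 and 43.1 in mesenchyme, below the table median and not tested. Rat S68284cds_at measured 136 and 112 in bud and 133 and 116 in mesenchyme, which overlap.

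**Figure D3:**
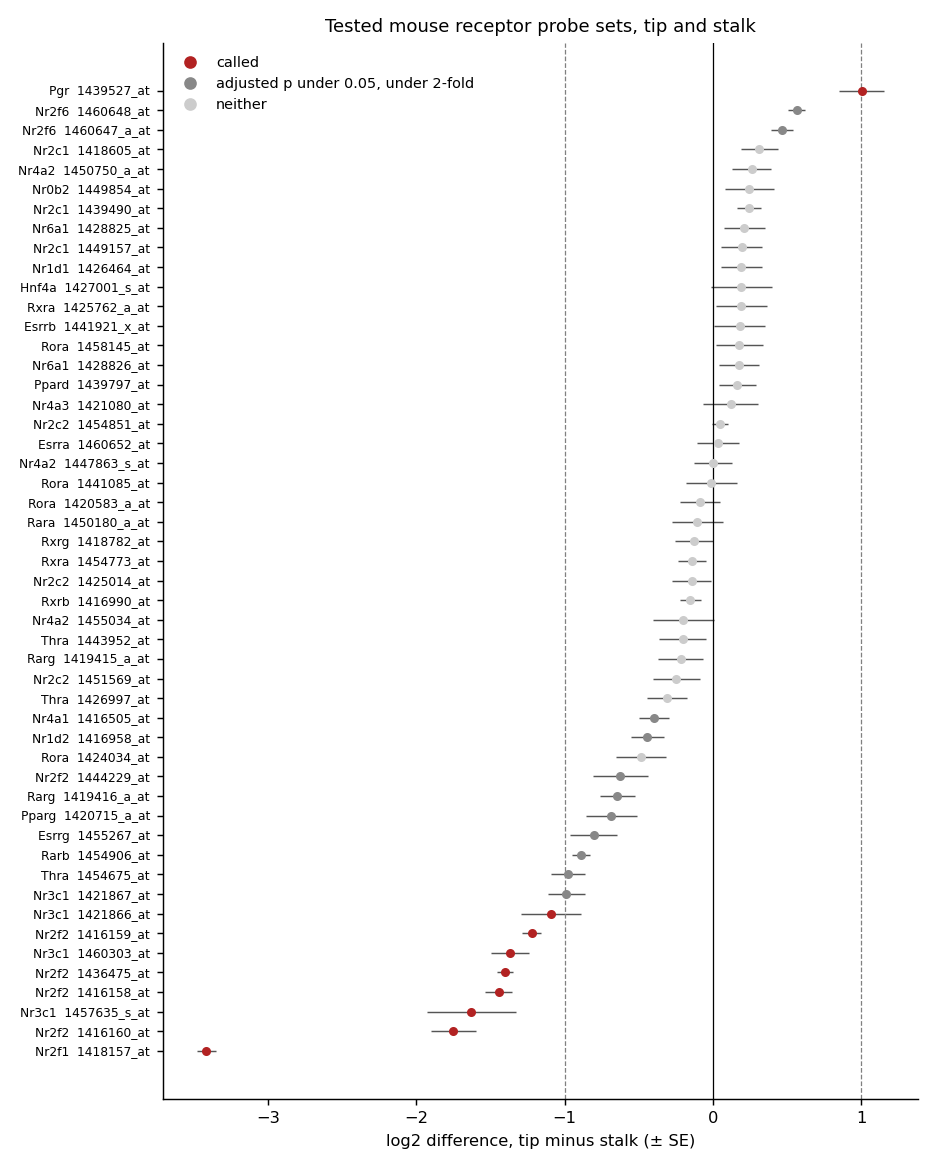
Log2 difference, tip minus stalk, of the 50 tested mouse receptor probe sets (1 row each), with bars of 1 SE. Red points were called, dark grey points had an adjusted p under 0.05 without a 2-fold difference, and light grey points had neither. Nr2f1 lies at -3.41, the other called ones lower in tip are those of Nr2f2 and Nr3c1, and Pgr alone was called higher.

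Among the receptors for retinoic acid, Rarb differed most between tip and stalk. Rarb is itself a well known retinoic acid target, through a response element next to its start. The stretch below is shown because this element can be read in the rat sequence, in the RefSeq promoter table for assembly GRCr8, at chr15:11336410-11336439 on the plus strand. Capitals mark the match, which is GGTTCA and AGTTCA with 5 bases of any kind between them, and which begins at base 25 counted from the annotated start.
Rarb: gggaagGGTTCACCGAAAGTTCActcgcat
The motif was searched on both strands of 300 bases around each start and was chosen after this sequence had been read. It occurred in 3 of 33469 windows (0.00896%), and of the listed receptors only in Rarb. A match describes letters and does not show binding.

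Rarb measured 415 and 378 in tip, 763 and 732 in stalk, and 556 on both mesenchyme arrays. It was -0.89 ± 0.06 (SE) in tip relative to stalk (adjusted p = 1.585e-05), -0.47 relative to mesenchyme (adjusted p = 4.294e-04), and 0.41 higher in stalk than mesenchyme (adjusted p = 0.002563), with no overlap and no 2-fold step. Rarg by 1419416_a_at was -0.65 in tip relative to stalk (adjusted p = 0.003521), but by 1419415_a_at its tissues overlapped. Rara measured 81.8 and 78.6 in tip, 87.5 and 87.6 in stalk and 86.6 and 56.6 in mesenchyme, which overlap.

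In rat, Rara was lower in bud by all 3 probe sets and no difference passed. The rat Rara probe set AJ002940cds_s_at had 147 and 71.4 in bud, against 244 and 213 in mesenchyme, which was 2-fold (-1.03) but not called. It passed the filter on low values through mesenchyme alone, so its adjusted p is not given. Its bud arrays differ more from each other than the mesenchyme arrays do. U15211_at for Rara measured 2097 and 2048 in bud, against 2559 and 2712 in mesenchyme (-0.34, adjusted p = 0.1236). Rat Rarb had 242 and 242 in bud, against 312 and 364 in mesenchyme on the first design (-0.45, adjusted p = 0.08059), while on design C it overlapped.

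The retinoid X receptors are the dimer partners of many receptors here. Rxrb measured 569 and 553 in tip, 614 and 637 in stalk and 749 and 643 in mesenchyme, and was -0.30 in tip relative to mesenchyme (adjusted p = 0.01313). Rat Rxrb was also lower on both bud arrays, 223 and 232 in bud against 243 and 267 in mesenchyme, without passing (adjusted p = 0.5292). No Rxra probe set passed in either species.

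The supply of the ligand was read from genes of retinoid synthesis, binding and breakdown. Of 10 tested, 2 were called higher in tip than stalk, Aldh1a1 (1125 in tip, 264 in stalk) and Aldh1a3 (873 in tip, 341 in stalk), which make retinoic acid. A further 2 were called lower, the retinoic acid synthase Aldh1a2 (296 in tip, 1193 in stalk) and the binding protein Crabp1 (50.7 in tip, 367 in stalk). Over all genes 1.16% were called higher and 4.18% lower. Tip against mesenchyme gave 2 higher and 4 lower (4.65% and 5.06% of all genes), and stalk against mesenchyme 2 higher and 2 lower (2.94% and 0.558%). On the first rat design, 1 of 6 was called higher in bud (Aldh1a1) and 3 lower, Aldh1a2 and Crabp1 among them, where 3.22% and 2.59% of all genes were. The designs differ in how many genes of this list they carry, 7 on the first, 5 on design B and 1 on design C. Design B had 2 of 5 called higher in bud and 0 lower (3.2% and 2.22% of all genes). Its list was mixed, with a median of -0.12 and 1 gene lower in bud at an adjusted p under 0.05. On design C the 1 tested gene was called higher (2.22% of all genes).

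Thra, the thyroid hormone receptor alpha, was lower in tip than stalk by 1 of its probe sets, just short of 2-fold. By 1454675_at Thra had 128 and 103 in tip, 239 and 242 in stalk, and 219 and 220 in mesenchyme. It was -0.97 in tip relative to stalk (adjusted p = 3.137e-04) and -0.85 relative to mesenchyme (adjusted p = 4.419e-04), while the other 2 tested Thra probe sets passed in no comparison. The tip and stalk difference of 1454675_at was called on the deposited values (-1.05), with trimmed-mean scaling (-1.03), with a pseudocount of 1 (-1.06) and without the first tip array (-1.10). Pparg, the regulator of fat cell formation, and Esrrg, an estrogen-related receptor, passed the filter on low values through stalk alone, so their tests are not given. Pparg measured 33.9 and 20.3 in tip, against 54.0 and 50.8 in stalk and 45.97 and 37.4 in mesenchyme. Esrrg measured 36.4 and 25.05 in tip, 62.6 and 67.5 in stalk and 39.1 and 31.8 in mesenchyme. In both, the stalk arrays were above the median and above all tip and mesenchyme arrays. Mouse Esrra had its highest values in mesenchyme, with 80.7 and 105 in tip, 89.2 and 90.3 in stalk and 116 and 122 in mesenchyme, but passed in no comparison of single tissues. It was lower on both bud arrays of rat design C, 181 and 181 against 257 and 260 in mesenchyme (-0.48, adjusted p = 0.03569).

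The orphan receptors Nr2c1 and Nr2c2 (TR2 and TR4) and Nr6a1 (GCNF), known from germ cells and early embryos among other tissues, had their highest means in tip, Nr2c2 by 1454851_at (694 in tip, 673 in stalk and 601 in mesenchyme) but not by its other 2 tested probe sets, which were highest in stalk. Those averaged 104 in tip, 125 in stalk and 95.5 in mesenchyme (1451569_at) and 50.4 in tip, 57.4 in stalk and 54.8 in mesenchyme (1425014_at). Nr2c1 measured 297 and 319 in tip, 256 and 259 in stalk and 206 and 220 in mesenchyme by 1439490_at. All 3 tested Nr2c1 probe sets were higher in tip than mesenchyme, by 0.50 to 0.58, with an adjusted p under 0.05. Nr6a1 by 1428825_at had 53.4 and 56.6 in tip, 47.0 and 43.8 in stalk and 33.1 and 26.4 in mesenchyme, and passed the filter through tip alone, so its test is not given. The clock repressor Nr1d2 had the reverse order, with 168 and 135 in tip, 210 and 212 in stalk and 270 and 269 in mesenchyme, or -0.78 for tip minus mesenchyme (adjusted p = 6.504e-04). Rora by 1424034_at, which passed the filter through mesenchyme alone, had 31.4 and 23.6 in tip, 47.6 and 42.0 in stalk and 66.9 and 48.2 in mesenchyme, and its other 3 tested probe sets had no adjusted p under 0.05 in any comparison.

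Nr4a1, Nr4a2 and Nr4a3 are immediate-early genes, induced within minutes by growth factors, calcium and stress. Rat Nr4a1 (NGFI-B) was the single rat receptor called higher in bud. Its rat promoter, the 250 bases before the annotated start at chr7:134259888-134260137 on the plus strand of GRCr8 (RefSeq), is shown because of 4 repeats of TGCGTCA, in capitals, a motif of the type bound by CREB and AP-1 proteins.
Nr4a1: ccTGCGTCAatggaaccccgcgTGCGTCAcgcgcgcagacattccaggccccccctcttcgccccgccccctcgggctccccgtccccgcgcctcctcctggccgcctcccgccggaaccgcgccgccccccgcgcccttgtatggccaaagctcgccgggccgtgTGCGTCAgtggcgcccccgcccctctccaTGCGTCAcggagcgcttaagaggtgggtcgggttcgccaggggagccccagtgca
The first bases of the repeats lie 248, 228, 84 and 55 bases before the start. Searched on both strands, TGCGTCA occurred in 556 of 33469 rat windows of this length (1.66%), and Nr4a1 was the 1 window with 4 or more. None of the 12 immediate-early genes with a window held it, nor did another listed receptor. The motif was chosen after the sequence had been read, and its presence shows no binding.

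Rat Nr4a1 by U17254_g_at measured 348 and 488 in bud, against 170 and 195 in mesenchyme. It averaged 418 ± 98.9 in bud and 182 ± 17.9 in mesenchyme (SD, n = 2 each), a difference of 1.11 ± 0.18 (SE, adjusted p = 0.01137). Without the second bud array, the one whose Gapdh ratio was 4.43, Nr4a1 was 0.87 and no longer 2-fold, and without the first mesenchyme array its adjusted p was 0.08075. U17254_at for the same gene had 189 and 240 in bud, against 134 and 159 in mesenchyme, 0.50 with an adjusted p of 0.1049. Rat Nr4a3 had 239 and 254 in bud, against 188 and 177 in mesenchyme, and did not pass.

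Mouse Nr4a1 measured 692 and 855 in tip, 1016 and 1023 in stalk, and 567 and 658 in mesenchyme. Stalk was highest, by 0.72 over mesenchyme (adjusted p = 0.001397), with tip minus stalk at -0.40 (adjusted p = 0.01694) and tip 0.32 over mesenchyme (adjusted p = 0.03435). Mouse Nr4a2 and Nr4a3 passed in no comparison. Of 18 other immediate-early genes, 0 were called higher and 4 lower in tip than stalk (Fos, Fosb, Egr3 and Klf4), with a median of -0.38 beside 0.06 over all genes, of which 4.18% were called lower. Their sum was 16330 to 16880 in tip, 24760 to 24790 in stalk and 17540 to 18000 in mesenchyme, highest in stalk like Nr4a1. In rat, 3 of 14 were called higher in bud, Egr1 (1.27), Klf6 (1.33) and Atf3 (1.06), where 3.22% of all genes were. Their median in rat was nevertheless -0.03, against 0.03 over all genes, and the sum over 15 was 9843 to 10630 in bud and 7296 to 7316 in mesenchyme. The part of this group in the Nr4a1 values was not tested.

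**Figure D4:**
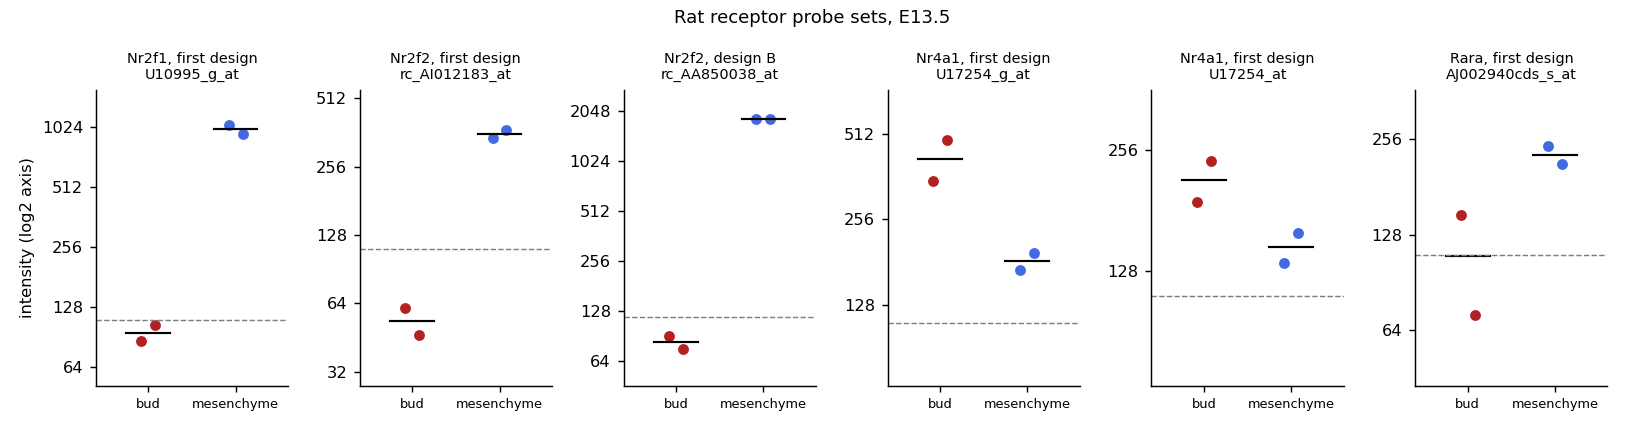
Intensity (log2 axis) of 6 rat receptor probe sets in bud and mesenchyme. Points are the 2 arrays of each tissue, bars their mean, and the dashed line the median of the table. Nr2f1 and Nr2f2 in bud lie below the median and far below mesenchyme, Nr4a1 lies higher in bud, and the bud arrays of Rara AJ002940cds_s_at differ widely at 147 and 71.4.

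In all, 3 of 32 tested rat receptor probe sets were called on the first design (9.38%, beside 5.79% of all 4629 tested), 1 of 5 on design B (20%, beside 5.81%) and 0 of 3 on design C (beside 4.63%). On design C limma gave 2 of 3 an unadjusted p under 0.05. Counts of 1 to 3 are too small to be read against these backgrounds.

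The genes that work with the receptors were also counted. Of 19 tested coregulators, such as the Ncoa coactivators, 0 were called between tip and stalk, 2 higher and 5 lower having an adjusted p under 0.05, and their median was -0.04, against 0.06 over all genes. Ppargc1a, a coactivator of mitochondrial genes, was the 1 called between tip and mesenchyme, at 125 in tip and 38.0 in mesenchyme (1.38, adjusted p = 1.435e-04), where 4.65% of all genes were called higher. Of 16 tested genes known as direct receptor targets, 0 were called higher in tip than stalk and 5 lower (4.18% of all genes were lower), with a median of -0.43, Rarb itself being 1 of the 16. They were the cholesterol exporter Abca1 (119 in tip, 909 in stalk) and Mylip, both known targets of liver X receptors, the lipid genes Angptl4 and Plin2, known PPAR targets, and the glucocorticoid-induced kinase Sgk1 (122 in tip, 366 in stalk). Against mesenchyme, 4 of these 5 were again called lower in tip, Mylip being the exception, and Greb1, an estrogen-induced gene, was called higher (404 in tip, 162 in mesenchyme). Over all genes 5.06% were called lower and 4.65% higher there. None of the 16 was called between stalk and mesenchyme. On the rat designs no tested gene of either list was called.

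Mouse and rat were set side by side with the mean of tip and stalk as the mouse bud. In that comparison 6 of 50 receptor probe sets were called (12%, beside 4.65% of all), those of Nr2f1, Nr2f2 and Pgr. By the brightest probe set, 1 of 28 receptors was called higher in bud and 2 lower, beside 3.58% and 2.18% of all genes. For 19 receptors tested in both species there were 55 pairs of probe sets, which share arrays and often a gene. In 13 pairs, of Nr2f1, Nr2f2, Nr4a1, Rxrb and Esrra, all bud arrays lay on the same side of all mesenchyme arrays in both species. In 3 pairs, of Nr2c2, Rxra and Thra, they lay on opposite sides, and in the other 39 the arrays overlapped in at least 1 species. Most of the 13 pairs are of Nr2f2, and by gene the counts are 5 receptors and 3. The share over all probe set pairs was not computed, so these counts are not read as agreement between the species. For Nr2f1 the bud minus mesenchyme difference was -2.17 in mouse and -3.18 in rat, and for Nr4a1 0.52 in mouse and 0.50 or 1.11 in rat by its 2 probe sets.

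**Figure D5:**
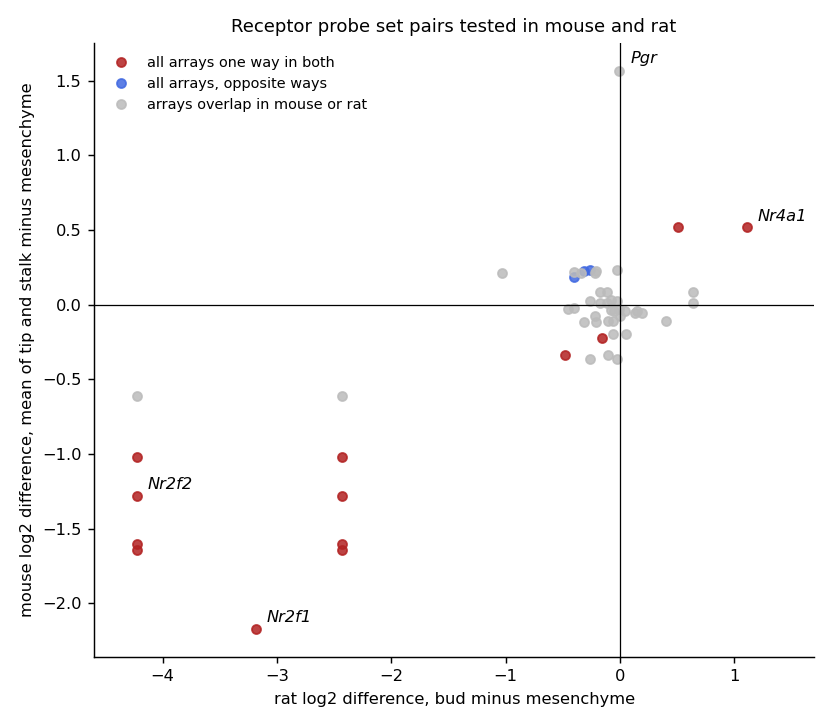
Log2 difference of bud minus mesenchyme in rat (x axis) and of the mean of tip and stalk minus mesenchyme in mouse (y axis) for 55 pairs of receptor probe sets. Red pairs have all bud arrays on the same side of all mesenchyme arrays in both species, blue pairs on opposite sides, and grey pairs overlap. Nr2f1 and Nr2f2 lie at the lower left, Nr4a1 at the upper right, and Pgr is at 1.57 in mouse and 0.00 in rat.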

How the data were processed

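The deposited values are 1 linear intensity per probe set and array, in 1 mouse and 3 rat tables, made with a scaling and summary method not given in the sources used here. Trimmed means of deposited arrays spread by 10.4% in the mouse table and by 2.44%, 4.28% and 4.07% in the rat ones. The deposited intensities were quantile normalised within their table, and the tests used log2(intensity + 16) of the normalised values, which understates changes of low genes. Control probe sets (64 in mouse, 59 in each rat table) were then left out. Tests used limma 3.58.1 in R 4.3.3 (lmFit, eBayes with a trend), with all 6 mouse arrays in 1 fit, each rat table on its own, and Benjamini-Hochberg adjustment over every tested probe set, 23937 in mouse and 4629, 4667 and 4666 in rat. The procedure was tested on simulated data.

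Of the member probe sets, 50 of 115 in mouse and 40 of 85 in rat passed the filter on low values. Symbols came from the platform annotation; 34945 mouse probe sets had 1 symbol, 932 several and 9160 none. In rat 7006, 5351 and 5821 had 1 symbol, 308, 38 and 45 several, and 1426, 3343 and 2864 none. All 85 rat member probe sets matched the reference table by Entrez identifier. A mouse probe set carrying Ppard with another symbol was not used. Promoter sequences are from RefSeq, rat GRCr8, with a window for 40 of the 46 receptors. Samples were grouped by their source labels. A gene of a list is its brightest probe set with 1 symbol. The text names every member probe set called in a comparison, other probe sets of those genes, and pairs whose species differ in direction. Further members, mostly with an adjusted p under 0.05, were named after their values were seen. The members and lists were chosen with earlier results of these data known. The number of arrays limits the precision.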

Additional observations from a re-analysis of the deposited data

Results flagged for a closer look

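For 3 of the 55 pairs of probe sets, bud and mesenchyme arrays were apart in both species but in opposite directions. The share of such pairs over all probe sets was not computed, and the difference between the species was not tested. Nr2c2 (TR4) was 0.18 for bud minus mesenchyme in mouse (1454851_at, adjusted p = 0.01987) and -0.40 in rat (rc_AA899464_i_at on design B, adjusted p = 0.1625). Rat Nr2c2 had 355 and 253 in bud, against 415 and 386 in mesenchyme. Rxra was 0.23 in mouse (1454773_at, adjusted p = 0.08305) and -0.31 in rat (rc_AI112101_at on design C, adjusted p = 0.12), where it had 328 and 340 in bud, against 423 and 413 in mesenchyme. The other tested mouse Rxra probe set, 1425762_a_at, was -0.11, the sign of rat, with overlapping arrays. Thra was 0.23 in mouse (1426997_at, adjusted p = 0.2106) and -0.26 in rat (M31174_at, adjusted p = 0.3111), with 284 and 342 in rat bud, against 362 and 392 in rat mesenchyme. The mouse Thra probe set 1454675_at went the other way, at -0.36. The species differ in stage, array and probe, and the second rat bud labelling of each design had the high Gapdh ratio.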

How the results depend on the processing

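Alternatives were the deposited or trimmed-mean scaled values, pseudocounts of 1 and 64, no filter, a limma test against 1.5-fold, each array left out, and, for the median, a mean rule and the deposited scale. No direction was reversed, and of the named members' values 987 kept their side of the threshold, 22 gained a call and 23 lost one. With a pseudocount of 64, all called probe sets numbered 671 for tip and stalk, 1266 for tip and mesenchyme, 392 for stalk and mesenchyme, 658 for the bud mean and 172 on rat design B, and the Pgr call for stalk and mesenchyme was lost (0 members); higher pseudocounts shrink low values. The 1.5-fold test gave 157, 164 and 124 on the first rat design, B and C. Leaving out 1 array gave 236 to 477, 227 to 370 and 76 to 361 called there, and 0 to 1 members for stalk and mesenchyme, the cause not being tested. Design B bud had 4 receptors' probe sets above the median by the mean rule and 2 to 4 with 1 array left out. Rat Nr4a1 U17254_g_at was 0.95 with a pseudocount of 64.

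The replicate numbers share only a number, since the labels do not pair them; same-numbered arrays deviated together with correlations of 0.42 to 0.57 in mouse and 0.22 to 0.31 in rat. With the replicate number as a block, tip and stalk had 1098 calls, of which 9 were members. The first rat design had 309 with 4 members under the block. Its gained call was that of Rara AJ002940cds_s_at (-1.03), which passed the filter on low values through mesenchyme alone. Rat Nr2f6 AF003926_at (adjusted p = 0.03766) and Nr4a1 U17254_at (adjusted p = 0.02582) then passed the p threshold without a 2-fold difference.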
